A study of Mus musculus with 8 samples.

Results

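The Id genes Id1, Id2, Id3 and Id4 were followed through the SMAD4 binding maps of early mouse limb buds. All 4 genes were taken, out of 22350 protein-coding genes on chromosomes 1 to 19 and X, together with every SMAD4 peak whose centre lay within 100 kb of the 5′ end of the gene (mm9, GENCODE vM1). This gave 7 of the 2073 peaks at E9.5 and 11 of the 6185 peaks at E10.5. The 8 samples of the series (2 for ChIP and 2 for input at either stage) came from NMRI embryos homozygous for the Smad4 allele with a 3xFLAG epitope tag (genotype label Smad4Flag). No sample carried an untagged allele or received a treatment. The chromatin was precipitated with the M2 anti-FLAG antibody. Each E9.5 replicate was a pool of about 80 embryos, dated E9.75 in the protocol, from which the forelimb buds were taken with the attached trunk. Each E10.5 replicate was a pool of about 100 embryos, from which fore- and hindlimb buds were taken, although the source label names the forelimb bud. Stage and dissected tissue therefore cannot be told apart. The replicates had been combined into 1 list per stage by the authors, so the values below have no replicate error and no test, and the depth of the libraries is unknown.

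ID proteins are helix-loop-helix proteins that lack the basic region needed to contact DNA. They pair with E proteins, the widely expressed basic helix-loop-helix factors, and so keep them and their partners from binding DNA. Their genes are among the best known direct targets of bone morphogenetic proteins (BMPs): ligand binding leads to phosphorylation of SMAD1, SMAD5 and SMAD9, which enter the nucleus with the common partner SMAD4 and bind GC-rich boxes and the shorter SMAD box CAGAC. In the embryo, ID proteins are associated with undifferentiated, dividing cells.

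The sequences below are shown because the same arrangement of a GC-rich box and a SMAD half-site lay under peaks of Id1, Id2 and Id3. The search was for GGCGCC followed after exactly 5 bases of any kind by GTCT, on both strands. These are the 5 matches under Id peaks, each with 15 bases to either side, read from mm9 on the strand that carries the box first, with box and half-site in capitals. The base after GTCT was G at 5 of 5 sites, so each half-site was also part of a SMAD box CAGAC on the other strand. The site 3.23 kb downstream of the Id1 5′ end is at chr2:152565192-152565236 (plus strand). The Id2 sites are 2.77 kb upstream at chr12:25783704-25783748 and 3.04 kb downstream at chr12:25777894-25777938 (minus strand). The Id3 sites are 2.95 kb upstream at chr4:135696440-135696484 and 4.49 kb downstream at chr4:135703881-135703925 (plus strand).
Id1 downstream: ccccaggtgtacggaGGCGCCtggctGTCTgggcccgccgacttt
Id2 upstream: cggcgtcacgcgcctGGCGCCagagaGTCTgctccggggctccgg
Id2 downstream: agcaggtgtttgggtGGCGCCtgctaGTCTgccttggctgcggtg
Id3 upstream: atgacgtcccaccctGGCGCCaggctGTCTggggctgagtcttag
Id3 downstream: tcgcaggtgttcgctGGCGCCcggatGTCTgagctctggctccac

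Id4 had no such composite under its peak. The Id4 peak and the peak over Id1 had another stretch in common, shown next because it was the longest exact run shared between a peak of Id1 and a peak of Id4. It was looked for after the sequences had been read. Both are given on the plus strand, the strand of both genes, with the GC-rich boxes GGCGCC and the shared run of 20 bases in capitals. The stretches lie at chr2:152560869-152560963, upstream of Id1, and at chr13:48323205-48323299, upstream of Id4.
Id1 stretch: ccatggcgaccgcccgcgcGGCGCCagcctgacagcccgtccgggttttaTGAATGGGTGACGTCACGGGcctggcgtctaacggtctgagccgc
Id4 stretch: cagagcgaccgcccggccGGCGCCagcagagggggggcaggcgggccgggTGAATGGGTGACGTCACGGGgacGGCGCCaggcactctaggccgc

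All 4 Id genes had a SMAD4 peak within 100 kb at E9.5, where 20.5% of the protein-coding genes had one. All 4 also had one at E10.5, where the share of all coding genes was 52.9%. Peaks at both stages were present at all 4 Id genes and at 14.7% of coding genes, and peaks that overlapped between the stages were present at all 4 and at 5.52%. Ranked by the deposited score within each list, with rank 1 the best, the best peak of every Id gene was within the best-scored 1% of both lists, which is the first 20 peaks at E9.5 and the first 61 at E10.5. Such a peak lay within 100 kb of 0.304% of coding genes at E9.5, of 0.993% at E10.5, and of 0.219% at both stages, which is 49 genes including the 4 Id genes. The threshold of 1% was chosen after the ranks had been seen, and Id3, at rank 19 of 20, was close to it: in the best-scored 0.5% of the E9.5 list (10 peaks) 1 Id gene, Id4, had a peak, against 0.166% of coding genes, whereas in the best-scored 0.5% of the E10.5 list all 4 had one. Of the 20 best E9.5 peaks 4 were Id peaks, and so were 4 of the 61 best E10.5 peaks.

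**Figure D1:**
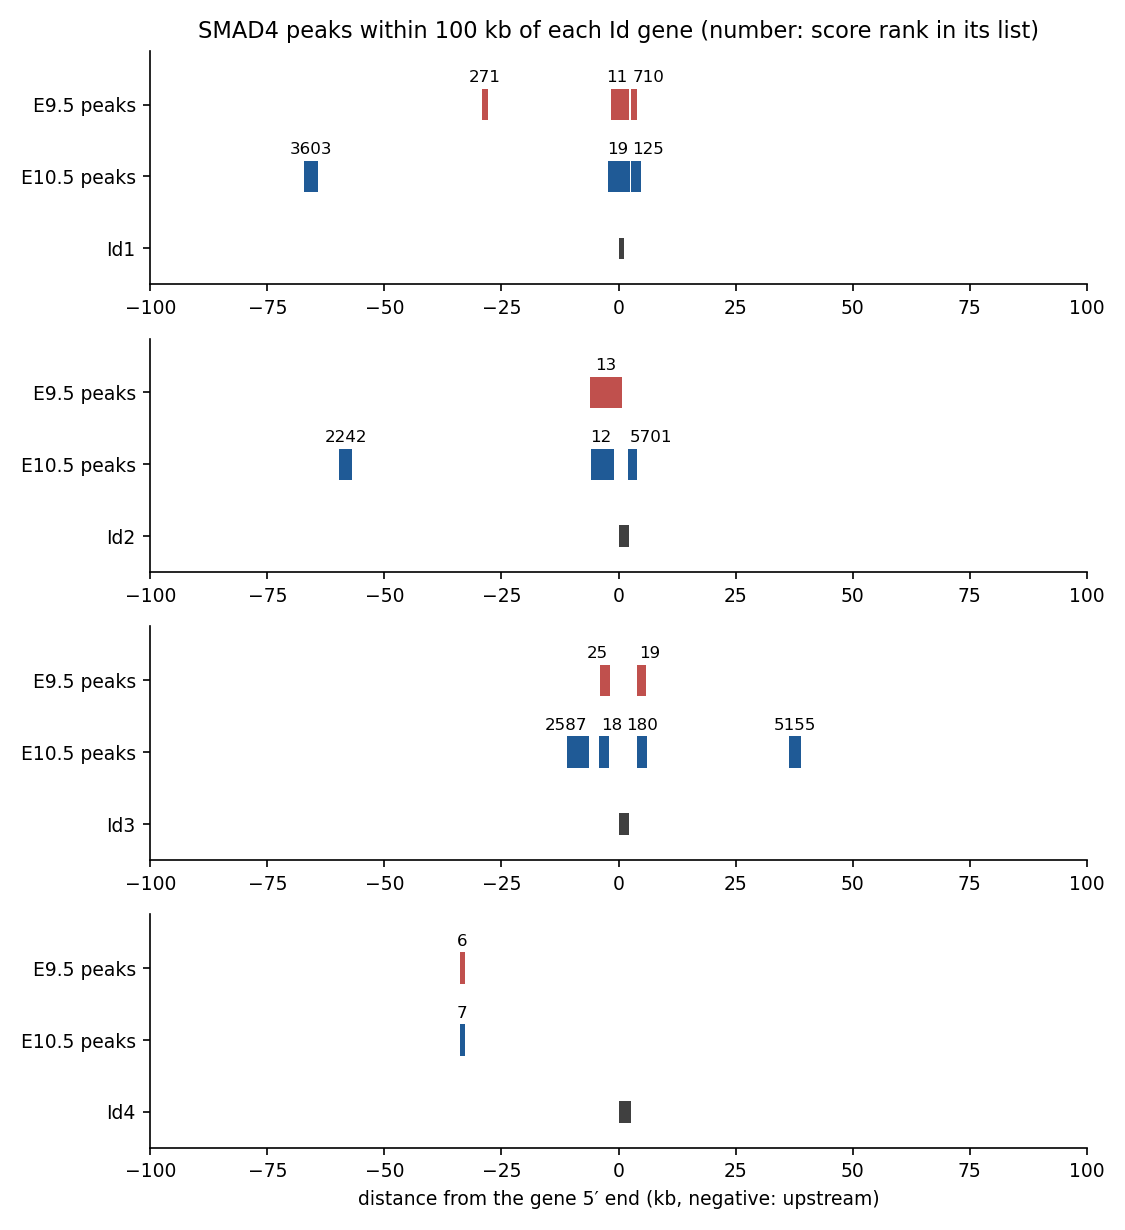
Map of all SMAD4 peaks within 100 kb of Id1, Id2, Id3 and Id4, drawn to scale against the distance from the gene 5′ end in kb in the direction of transcription; red bars are E9.5 peaks, blue bars E10.5 peaks, dark bars the genes, and the numbers are score ranks within each list. The well-ranked peaks (ranks 6 to 25) are centred within 5 kb of the 5′ end at Id1, Id2 and Id3 and 33.3 kb upstream at Id4.

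Id1 lies at chr2:152561987-152563146 on the plus strand, between H13, which encodes an intramembrane protease, and Cox4i2, which encodes a subunit of cytochrome c oxidase. Its principal peak held the whole gene of 1160 bp at both stages. At E9.5 this peak was chr2:152560305-152564270 (3966 bp), with a score of 730.3 and rank 11. At E10.5 it was chr2:152559753-152564457 (4705 bp), with a score of 244 and rank 19. The centres lay in the coding exon, 0.3 kb and 0.118 kb from the 5′ end, and 182.5 bp apart. The E9.5 peak was wider than 97.2% of its list, and the E10.5 peak wider than 80.3%, against list medians of 1244 bp and 2552 bp.

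A further Id1 peak began just beyond the first and held the composite shown above. At E9.5 it was chr2:152564604-152565839, with a score of 62.04 and rank 710. At E10.5 it was chr2:152564564-152566789, with a score of 146.4 and rank 125. This was the Id peak whose standing differed most between the lists, from 34.2% down the E9.5 list to 2.02% down the E10.5 list. The E9.5 centre lay 7.5 bp from the composite, whereas the wider E10.5 peak (2226 bp against 1236 bp) was centred 462.5 bp from it.

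The other Id1 peaks were found at 1 stage each and lay in H13. The E9.5 peak at chr2:152532864-152534105, 28.5 kb upstream and in an H13 UTR, had a score of 88.18 and rank 271. The E10.5 peak at chr2:152494818-152497752, 65.7 kb upstream, had a score of 57.1 and rank 3603 and was centred in an H13 intron, 1.09 kb from the H13 5′ end. With 3 E9.5 peaks Id1 was among the 0.461% of coding genes that had 3 or more. The locus is gene-dense: the 5′ ends of 4 other coding genes lie within 100 kb of that of Id1, and its principal peak was also the best peak of H13, Cox4i2, Mcts2 and Bcl2l1, the last of which encodes an inhibitor of apoptosis.

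Id2 lies at chr12:25778666-25780957 on the minus strand, with 1211 kb free of coding genes upstream, up to Rnf144a (a ubiquitin ligase gene), and 32.5 kb downstream, up to Kidins220 (a membrane scaffold gene). Its E9.5 peak at chr12:25780171-25787006 was 6836 bp wide, wider than 99.9% of the list, and had a score of 544.3 and rank 13. It reached from 6.05 kb upstream to 0.786 kb past the 5′ end. The E10.5 peak at chr12:25781990-25786773 (4784 bp) had a score of 287.4 and rank 12, lay entirely within the E9.5 peak and ended 1.03 kb short of the 5′ end. Its centre was 3.42 kb upstream, 793 bp from that of the E9.5 peak. Both held the upstream composite.

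Id2 had 2 further peaks at E10.5 with no E9.5 counterpart, both ranked below the 2073 places of the shorter E9.5 list. The peak at chr12:25777042-25778901 spanned the 3′ end of the gene, 2.99 kb from the 5′ end, with a score of 42.45. Its rank of 5701 is near the end of the list, yet it held a composite 55.5 bp from its centre, the downstream one shown above. The peak at chr12:25837938-25840591, 58.3 kb upstream, had a score of 65.83 and rank 2242.

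Id3 lies at chr4:135699412-135701670 on the plus strand, between Rpl11 (ribosomal protein) and E2f2 (a cell cycle transcription factor). It was flanked by a peak on either side at both stages. The upstream peak was chr4:135695349-135697541 at E9.5, with a score of 324.2 and rank 25, and chr4:135695215-135697312 at E10.5, with a score of 251.8 and rank 18. The downstream peak was chr4:135703333-135705387 at E9.5, with a score of 385.2 and rank 19, and chr4:135703392-135705419 at E10.5, with a score of 130.5 and rank 180. The downstream peak was therefore the best-ranked Id3 peak at E9.5 and the upstream peak at E10.5. Neither touched the gene body, and the 5′ end of Id3 lay in no peak of either list.

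At Id3 the downstream pair shifted less between the lists than the median pair, and the upstream pair shifted more. The centres were 181.5 bp apart for the upstream pair and 45.5 bp for the downstream pair, and the E10.5 widths were 0.957 and 0.987 times the E9.5 widths. Over all 390 overlapping pairs of the lists the median distance between centres was 110.5 bp and the median width ratio 1.1. Each of the flanking peaks held 1 composite. At E10.5 Id3 had 2 more peaks, 8.63 kb upstream (chr4:135688438-135693134, score 63.22, rank 2587) and 37.7 kb downstream in an intron of E2f2 (chr4:135735720-135738423, score 50.64, rank 5155). With 4 peaks at E10.5 it was among the 5.42% of coding genes with 4 or more. The best E9.5 peak of Id3 was also the best peak of Asap3, E2f2, Rpl11 and Tcea3.

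Id4, at chr13:48356796-48359405 on the plus strand, differed from the other Id genes in having a single peak at each stage, far from the gene. The nearest coding genes are 4931429P17Rik, 243 kb upstream, and the zinc finger gene Zfp169, 225 kb downstream. The peak lay 33.3 kb upstream of the 5′ end, in the non-coding gene A330033J07Rik, namely chr13:48322998-48323988 in the E9.5 list and chr13:48323022-48323892 in the E10.5 list. It was the best-ranked Id peak in both lists, with a score of 1081 and rank 6 in the earlier list and a score of 344.3 and rank 7 in the later one. It was also the narrowest of all Id peaks, at 991 bp and 871 bp. A width this small or smaller was found in 34.3% of the earlier list and in 2.31% of the later. The centres were 36 bp apart, the closest of the 6 Id pairs, and the whole E10.5 peak lay within the E9.5 peak. No peak of either list was centred within 10 kb of the Id4 5′ end.

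**Figure D2:**
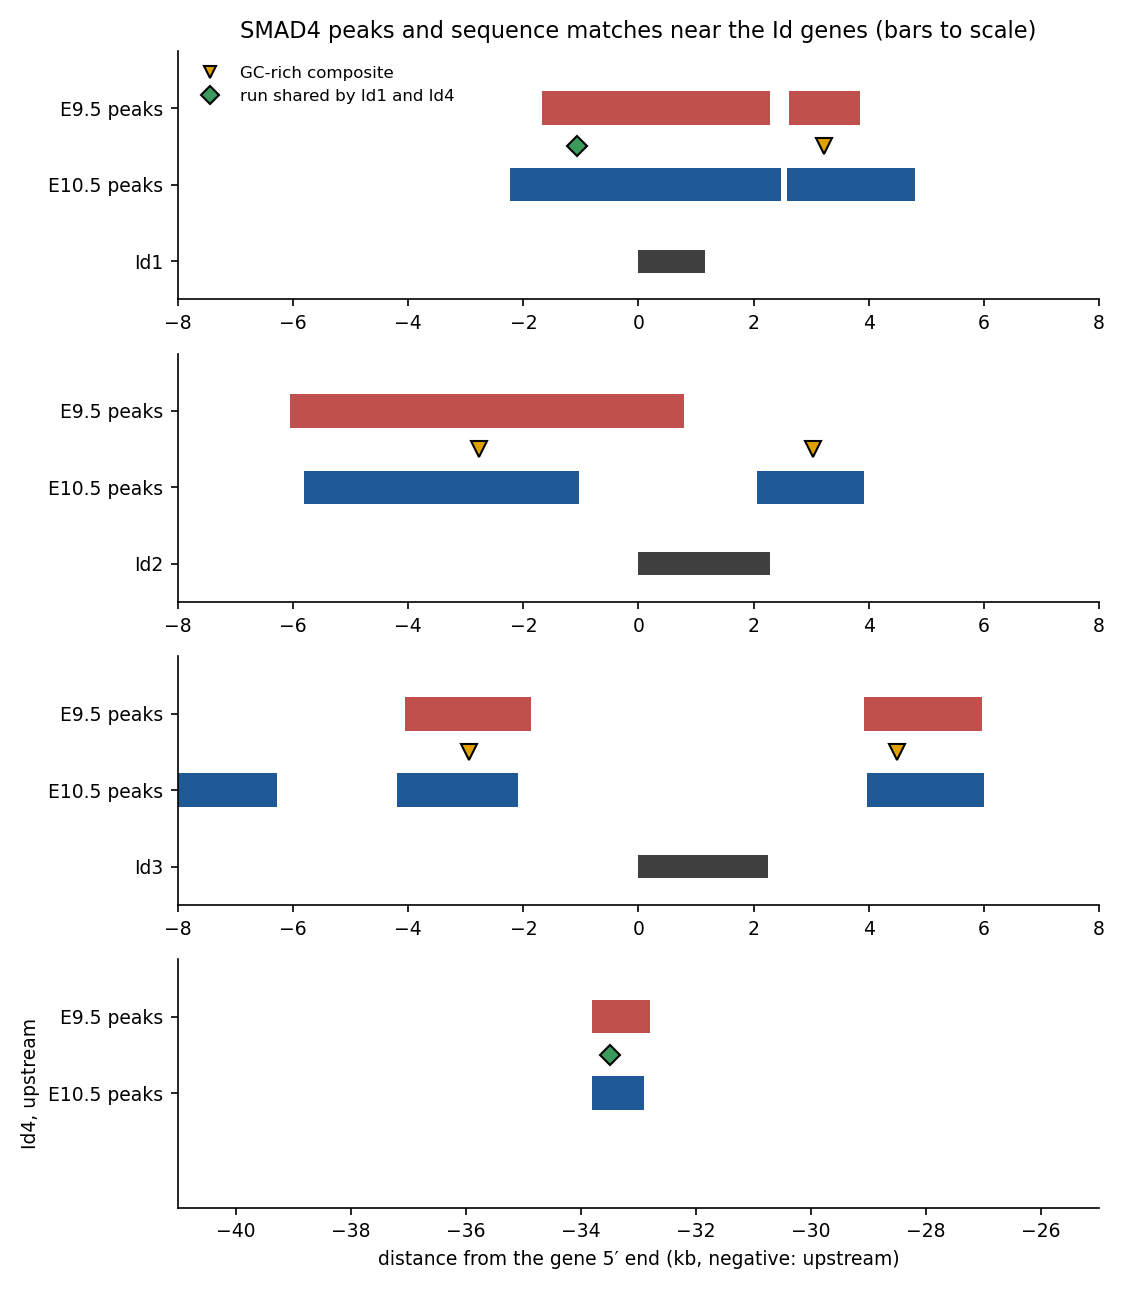
Close view of the SMAD4 peaks (red E9.5, blue E10.5, bars to scale) against the distance from the 5′ end in kb, for 8 kb to either side of Id1, Id2 and Id3 and around the peak upstream of Id4, whose gene lies outside the panel. Yellow triangles mark the 5 composites under peaks, and green diamonds the 20-base run shared by the Id1 and Id4 peaks.

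In the order of the best ranks, Id4 came first at both stages (6 and 7). Id1 (11), Id2 (13) and Id3 (19) followed at E9.5, and Id2 (12), Id3 (18) and Id1 (19) at E10.5. Without replicate values it cannot be said which of these neighbouring ranks differ. The levels of the scores were not compared between the lists. Of the peaks that were not the best of their gene, the Id3 upstream peak at E9.5 (rank 25) lay close to these in the curves of score against rank. The Id1 and Id3 downstream peaks at E10.5 followed (ranks 125 and 180), and the others lay lower, at ranks 271 and 710 in the earlier list and 2242 to 5701 in the later.

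**Figure D3:**
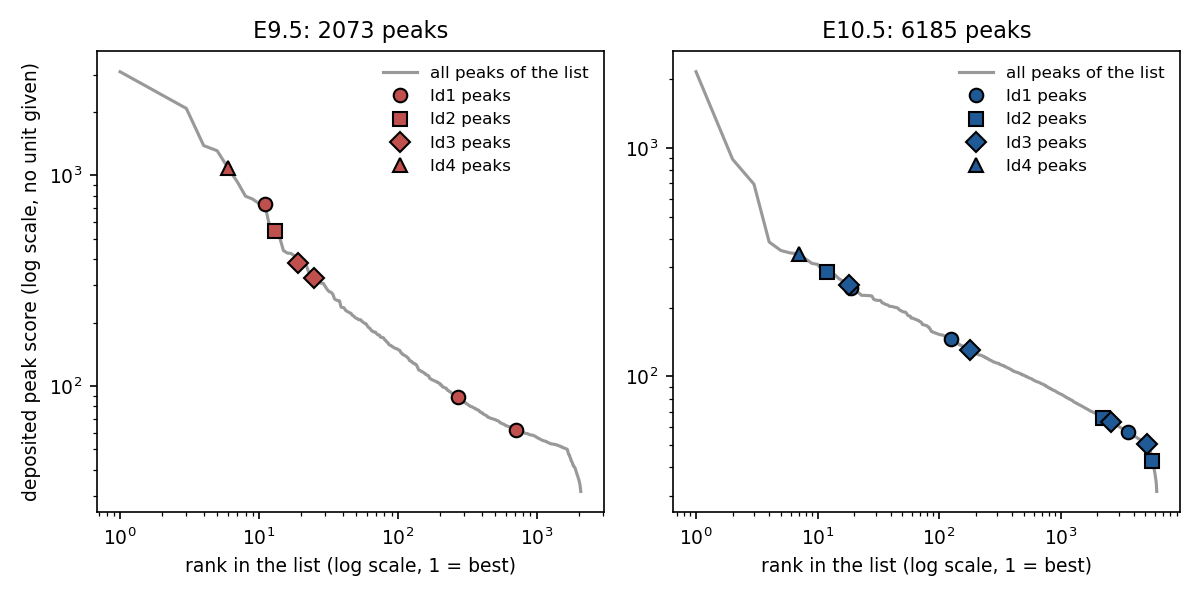
Deposited peak score against rank within the list, both axes logarithmic, for the 2073 E9.5 peaks (left) and the 6185 E10.5 peaks (right); the grey line is the whole list and the symbols are the peaks within 100 kb of each Id gene. Each list has 4 Id genes in its steep upper part, and the E10.5 list has 5 Id peaks at ranks of 2242 and beyond.

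Of the 7 E9.5 Id peaks 6 overlapped an E10.5 peak, against 18.7% of all E9.5 peaks. Of the 11 E10.5 Id peaks 6 overlapped an E9.5 peak, against 6.26% of all E10.5 peaks. The 5 Id peaks found at E10.5 alone ranked from 2242 to 5701, beyond the length of the E9.5 list. With the E10.5 list cut to about that length (2074 peaks), these 5 were lost, and the 6 Id peaks that remained all overlapped an E9.5 peak. The share over all peaks of the cut list was not computed, so this count has no background. Well-scored peaks in general overlapped more often: of the best-scored 1%, 19 of 20 E9.5 peaks and 34 of 61 E10.5 peaks overlapped a peak of the other list. In the same set, the best peaks of all 4 Id genes overlapped at both stages. When the 390 overlapping pairs were ordered by the sum of both ranks, the Id4 pair was 4th, the Id2 pair 6th, the Id1 principal pair 9th and the Id3 upstream pair 14th. The Id3 downstream pair was 38th and the Id1 downstream pair 110th. The overlap covered 100% of the E9.5 peak in both Id1 pairs and 70% in the Id2 pair, the lowest of the 6.

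Between 100 and 500 kb there were 5 E9.5 peaks, at Id2 and Id3. The best of them was at chr12:26218434-26219727, 438 kb upstream of Id2 in the same gene-free interval, with a score of 148.2 and rank 101 and with no overlapping E10.5 peak. At E10.5 there were 14 such peaks. The best was at chr2:152220244-152225395, with rank 22, and lay over Sox12, a transcription factor gene 339 kb upstream of Id1. The next window, from 500 kb to 1 Mb, held 5 peaks of the E9.5 list and 20 of the E10.5 list, and none between 100 kb and 1 Mb ranked above the best peak that its Id gene had within 100 kb.

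The composite of GGCGCC, 5 bases and GTCT was rare. It had 447 matches on chromosomes 1 to 19 and X, and it occurred in 0.579% of E9.5 peaks and in 0.566% of E10.5 peaks. In windows of 300 bp around the peak centres it occurred in 0.193% and 0.113%, and in 0.0626% of the promoters of all coding genes (250 bases before to 50 after the 5′ end). Of the 12 matches in E9.5 peaks 4 were in Id peaks, and of the 35 in E10.5 peaks 5 were. Of the 9 matches that lay in peaks at both stages, 4 were at Id genes. The others lay nearest to the 5′ ends of Skil, Msx2, Tulp4, Ssbp2 and Gspt1. The composite 0.492 kb upstream of Skil, which encodes a SMAD-binding repressor, was in the peak of rank 1 at both stages. That of Msx2 lay 3.3 kb upstream, in peaks of rank 121 at E9.5 and 2410 at E10.5. Coding genes with a composite in a peak within 100 kb made up 0.174% with the E9.5 list and 0.488% with the E10.5 list.

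Of the 7 composites within 100 kb of an Id gene, 5 were in a peak. The exceptions were 1.3 kb downstream of the Id3 5′ end and 1.47 kb downstream of that of Id4. Within 300 bp around the centre, a composite was present in 3 of 7 E9.5 and 1 of 11 E10.5 Id peaks, and in the whole peaks in 4 of 7 and 5 of 11. In the E10.5 peaks the composites lay up to 655.5 bp from the centre, the farthest being that of Id2.

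Gaps of 0 to 15 bases were searched after the matches with a gap of 5 had been seen. The 15 other gaps gave 0 matches in Id peaks at both stages, against 4 and 5 at a gap of 5. Over all peaks a gap of 5 did not stand apart: 2.68% of its genome matches lay in E9.5 peaks, where the other gaps ranged from 0.474% to 2.89%, and 7.83% in E10.5 peaks, where they ranged from 2.4% to 10.7%.

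**Figure D4:**
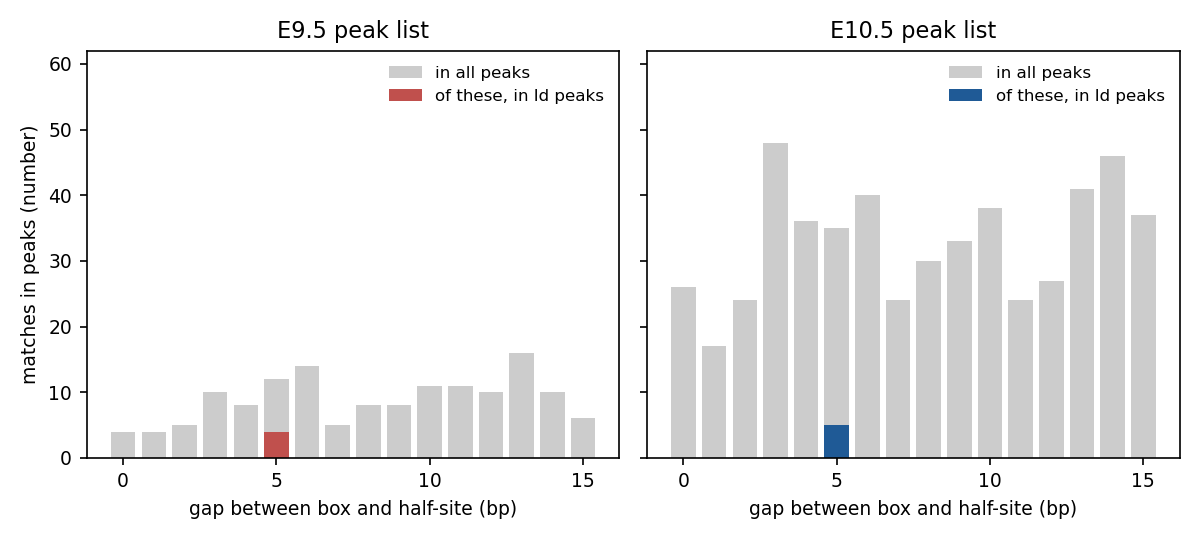
Number of matches in peaks to a GC-rich box followed by a SMAD half-site, by the gap between them in bp, in the E9.5 list (left) and the E10.5 list (right); grey bars count all peaks and coloured bars the part in Id peaks. Matches in Id peaks (4 and 5) appear at a gap of 5 and at no other gap.

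Next to the box, the downstream sites had a word in common. The letters CAGGTGT stood within the 20 bases before the box at 3 of the 5 Id sites, which are the 3 downstream sites of Id1, Id2 and Id3 shown above. Of all 447 genome matches of the composite, these were the only 3 with CAGGTGT at that place (0.671%). The shorter CAGGTG, an E-box of the kind that E proteins bind, was present at 11 of 447 (2.46%). Beyond that the flanks were mostly unlike. Of the 45 bases 10 are the same by the search, and over the other 35 the pair most alike was Id1 downstream with Id3 downstream, at 51.4% identity, while the remaining pairs had between 22.9% and 37.1%. Among the 30 flanking positions, 1 had the same base at all 5 sites, the G after the half-site, and the base before the box was T at 4 of 5. Within the gap, the second base was G at 5 of 5. These letters were chosen after the sequences had been read, and a match is a description of the sequence only.

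The run shared by Id1 and Id4 began 25 bases after a GC-rich box at Id1 and 26 bases after one at Id4. Its 20 bases had 2 exact matches on chromosomes 1 to 19 and X, these same sites, 1.06 kb upstream of the Id1 5′ end and 33.5 kb upstream of that of Id4. Before it, blocks of 11 and 10 identical bases followed in the same order in both stretches, the shorter of which includes the box, while only 52.6% of the 95 bases were identical when the stretches were set side by side without gaps. The run includes TGACGTCA, the palindromic cAMP response element bound by CREB and ATF proteins. At Id1 the run also overlaps the reverse primer of the ChIP-qPCR that the paper ran on the BMP responsive element of Id1. Since TGACGTCA was read from the shared run, its presence in the principal Id1 peak and in the Id4 peak was given in advance. It occurred once in each of these peaks at both stages and in no other Id peak. Over the whole lists it occurred in 2.17% of E9.5 and 4.56% of E10.5 peaks, shares that are no test for a word chosen in this way. The longest runs shared between peaks of Id1, Id2 and Id3 were simple GT repeats of 40 to 49 bases, with at least 13004 exact matches in the genome.

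The other SMAD sequences were counted in the same way. The SMAD box CAGAC, found in nearly all peaks, was present in 7 of 7 and 11 of 11 whole Id peaks, and in 94% and 98.2% of all peaks. Within 300 bp around the centres it was in 5 of 7 and 6 of 11 Id peaks, against 60.6% and 53.2%. In these windows the longer CAGACC was in 1 of 7 and 1 of 11, against 21% and 19.7%. GGAGCC was in 4 of 7 and 2 of 11, against 32.3% and 34.1%. The longer GC-rich TGGCGCC was in 2 of 7 and 2 of 11, against 4.82% and 3.96%. GGCGCC, counted once for its palindrome, was present in 6 of 7 and 9 of 11 whole Id peaks, against 26.1% of E9.5 and 44% of E10.5 peaks. These whole-peak shares were not matched for peak width. Within 300 bp around the centres GGCGCC was present in 4 of 7 and 3 of 11 Id peaks, against 12.6% and 13.1%, and in 14.3% of promoters. The principal Id1 peak at E9.5 held 11 SMAD boxes and 1 GC-rich box, whereas the narrow Id4 peak held 1 SMAD box and 2 GC-rich boxes. The variant with GGAGCC in place of GGCGCC, the same gap and GTCT, and the palindrome GTCTAGAC were in 0 Id peaks. They were rare in all peaks too: the variant was in 0.482% of E9.5 and 1.52% of E10.5 peaks and the palindrome in 4.53% and 3.62%, so a count of 0 does not set the Id peaks apart.

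Beside the Id genes, 36 genes of the BMP pathway and its surroundings were examined, of which 15 had an E9.5 peak, 28 an E10.5 peak and 10 peaks that overlapped. The list was chosen with earlier results of these data known. The shares of all coding genes under the same rules were 20.5%, 52.9% and 5.52%. Only Smad6, Smad7 and Grem1 had peaks of the best-scored 1% at both stages, as the 4 Id genes did. The inhibitory group was the most fully covered, with peaks at 5 of 5 genes at both stages. In it Smad7, the inhibitory SMAD that targets type I receptors, had ranks 5 and 3, with the peak centred 0.991 kb and 1.1 kb downstream of its 5′ end.

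Of 5 ligand genes 1 had a peak at E9.5 and 2 at E10.5, with Bmp4 best at ranks 468 and 2727. Of 6 receptor genes 2 and 4 had peaks. Bmpr2, the type II BMP receptor, was best at E9.5 with rank 15, and Acvr2b, an activin receptor shared by BMPs, at E10.5 with rank 54. Among the 4 signal-transducing SMADs 0 had a peak at E9.5 and 3 at E10.5, where Smad4 itself was best with rank 667. Of 6 secreted antagonists 3 and 5 had peaks, and Grem1, the antagonist that lowers BMP activity in the limb bud, was best at both stages (ranks 3 and 25). Of 7 other targets 3 and 6 had peaks, with Hey1, a transcriptional repressor, best at E9.5 (rank 95) and Gata2, a zinc finger factor, at E10.5 (rank 285). Of the 3 genes for E proteins, the binding partners of ID proteins, 1 and 3 had peaks, and Tcf4 was best with ranks 317 and 253.

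**Figure D5:**
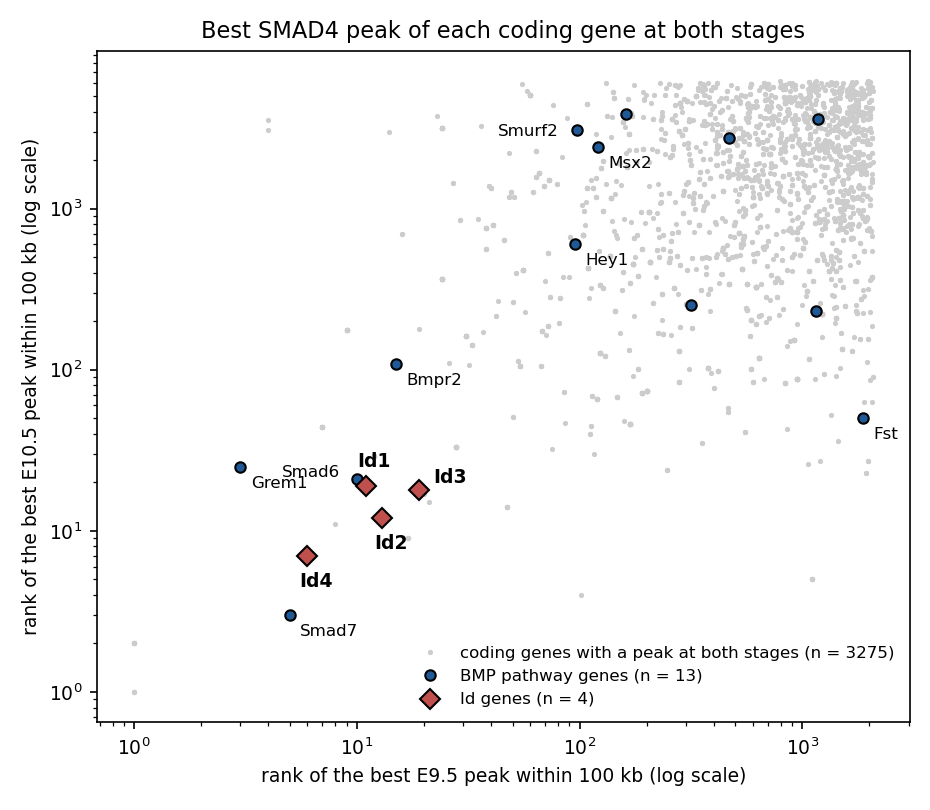
Rank of the best SMAD4 peak within 100 kb at E9.5 against that at E10.5 (both axes logarithmic, 1 is best) for the 3275 coding genes with a peak at both stages; red diamonds are the 4 Id genes and blue circles the BMP pathway genes. The Id genes lie in the lower left corner, with ranks of 6 to 19 in both lists, next to Smad6 and Smad7.

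The coding genes most like each Id gene in the pair of best ranks were found from the summed difference of the log10 ranks, over the genes with a peak at both stages, leaving out the Id genes themselves and genes whose best peak was that of the Id gene (Bcl2l1, Cox4i2, H13 and Mcts2 for Id1, and Asap3, E2f2, Rpl11 and Tcea3 for Id3). For Id1 they were Smad6 and its neighbour Lctl, which had the same peak (ranks 10 and 21), and Creb3l4 (12 and 29), which stood first in alphabetical order among genes with these same ranks, 9 others being tied with it. For Id2 they were Cggbp1, Zfp654 and 4930453N24Rik, which had 1 pair of peaks among them (17 and 9). For Id3 they were Zfp827 (20 and 17), A130050O07Rik (21 and 15) and Bcl2l1, whose best peak was the Id1 principal peak (11 and 19) and which tied with Cox4i2, H13 and Mcts2 for that reason. For Id4 they were the cyclin gene Ccny (8 and 11), Smad7 (5 and 3) and 4930453N24Rik, which again tied with Cggbp1 and Zfp654.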

How the data were processed

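SMAD4 ChIP and input samples (2 of each per stage) were grouped by their titles. According to the study's methods and the submitters' processing notes, the authors aligned the reads to mm9 with Bowtie 1.1.0, called peaks in each replicate with MACS 1.4 against input DNA at a permissive threshold, and combined the replicates with MSPC, keeping replicated regions. The deposited lists give position and a score per peak, made by the authors, whose unit the files do not name, so it was used for ranks within a list. According to the methods, each combined region received the best MACS p-value among its replicate calls, and the range of the scores fits such p-values on a scaled negative log10 axis, which the files do not state. On that reading a rank reflects the smallest p-value of either replicate and, since p-values depend on depth and input, not the amount of SMAD4. Input samples have no values of their own.

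Peaks were linked to GENCODE vM1 genes when their centre lay within 100 kb of the gene 5′ end, and overlapped when they shared at least 1 bp. Coordinates are 1-based. Peak sequence was read from the mm9 genome and searched on both strands for exact matches, in 300 bp around the centre and in the whole peak. Linking and overlap were tested on simulated data with known answers. Python 3.11.15, pandas 2.3.3, NumPy 2.4.6, pysam 0.24.0 and Matplotlib 3.10.9 were used.

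The genes, lists and window were chosen with earlier results of these data known, the best-scored 1%, the other gaps and the shared sequence after seeing the data. Named beside the Id genes were their neighbours, the best peak 100 to 500 kb away, the 3 genes most like each in ranks, and the best-ranked gene of each pathway list. Other genes that had the same peak, and the genes nearest to the other composites, were named after their values had been seen. Alternative windows, thresholds, distances and overlap rules were tried. Since no replicate values were used, no test was run.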

Additional observations from a re-analysis of the deposited data

How the results depend on the processing

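Of 63 alternatives to the main counts for the Id genes, 53 stayed within 1.5 times the value reported. The ranks of the best peaks were the same in all 30 alternatives that gave one. Over all 121 alternatives, which also cover the other sequence counts and the shares of coding genes, 90 stayed within that range and 31 moved. E10.5 Id peaks with GGCGCC were 3 in 300 bp, 6 in 1000 bp and 9 in the whole peak. All 4 Id genes kept a peak in both lists with windows of 50 kb, 500 kb and 1 Mb, with scores of at least 100 and with lists of equal length. In the widest windows so did most coding genes (60.6% at E9.5 and 82.8% at E10.5 within 500 kb, 78.4% and 91.3% within 1 Mb), whereas the shares were 11.4% and 37.8% within 50 kb, 3.04% and 8.77% with scores of at least 100, and 20.5% and 28% with equal lengths. Within 10 kb 3 of the 4 Id genes had one at either stage, without Id4, against 3.6% and 16.6%. The number of E9.5 peaks rose from 7 to 12 within 500 kb and 17 within 1 Mb. The number of E10.5 peaks was 7 within 10 kb, 25 within 500 kb and 45 within 1 Mb, and 6 with scores of at least 100 or with lists of equal length, the peaks without an E9.5 counterpart being those lost. With centres within 250 bp as the overlap rule, 4 of the 6 pairs and 3 of the 4 genes were counted. E10.5 peaks with the composite were 1 in 300 bp, 3 in 1000 bp and 5 in the whole peak. Of alternatives added after seeing the data, the best-scored 0.5% of the E9.5 list held a peak of 1 Id gene, and the best-scored 2% and 5% of both lists held all 4. No paired analysis was possible because the replicates of a stage had been combined before deposit, and for the same reason no replicate could be left out. The depth is unknown, and the absence of a peak does not show that SMAD4 was absent.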
